A study of Mus musculus with 2 samples.

Results

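Genes of the cell division machinery were compared between Sertoli cell preparations from busulphan-treated and control mice. The set holds 77 genes, read by 120 of the 15208 non-control probes on the array, and was taken by gene-name prefix. The matches were cyclins (Ccna, Ccnb, Ccnd, Ccne and Ccng), cyclin-dependent kinases (Cdk) and their inhibitors (Cdkn), Cdc genes and Polo kinases (Plk). They also included Mcm helicase genes, Aurora kinase names (Aurk), Bub checkpoint genes, Nek kinases and Cks genes. Cdkn1a and Cdkn1c were left out by the rule. The prefixes also take in Cdc42 and its effectors, 7 genes that act on cell polarity and actin, and 3 genes that share only letters with the others. These 10 genes were kept, and the total counts of higher and lower genes are also given without them.

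Cyclins are the regulatory subunits that switch on cyclin-dependent kinases, and the pairs act in turn: D and E cyclins with Cdk4, Cdk6 and Cdk2 carry a cell into DNA replication, and A and B cyclins with Cdk1 carry it into division. Mcm proteins open DNA at replication origins, Polo, Aurora and Nek kinases build the spindle, and the Bub proteins hold back the anaphase-promoting complex until chromosomes are attached. In the adult mouse testis these genes serve the mitotic divisions of spermatogonia and the meiotic divisions of spermatocytes, whereas Sertoli cells, the somatic nurse cells of the tubule, are regarded as no longer dividing.

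The busulphan group was 1 preparation of cells labelled as isolated Sertoli cells from male Swiss mice aged 3 months, taken 1 month after 25 mg/kg of busulphan, an alkylating drug that depletes germ cells. The control group was 1 such preparation from untreated males of the same strain and age. The labels name no genetic alteration and leave the number of mice behind a preparation unstated. Cells held back by the finer of the strainers were lysed without culture, and the RNA of each group went onto a single-colour array of its own. With n = 1 for each group there is neither a replicate nor a p-value, and every direction is between 2 libraries.

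The preparations differed in their cell type markers. Of 15 spermatid markers, 15 were lower in the busulphan library, with a level summed over their probes of 42.7, against at least 553.1 in the control library, in units of each array's 75th percentile signal; 7 of the 15 probes were saturated in control. Spermatocyte markers were lower for 12 of 15 genes (summed level 51.1 in the busulphan and at least 296.7 in the control library, where 3 probes were saturated), and 5 of 12 spermatogonial markers were higher and 2 lower (26.9 and 10.1). Most of both spermatogonial sums came from the Uchl1 probe (signals of 19115 in busulphan and 6211 in control). The 2 lower ones were Gfra1 and Pou5f1 (log2 -2.57 and -2.31). Sertoli markers were higher for 18 of 19 genes (at least 244.3 and 29.3, with the Clu probe saturated in busulphan), and markers of macrophages and other leukocytes for 10 of 14 (8.92 and 1.45). Leydig cell markers were higher for 1 of 6 genes and lower for 1, peritubular ones higher for 2 of 6, endothelial ones higher for 2 of 8 and lower for 3, and red blood cell ones higher for 1 of 5 and lower for 2. All 19 Sertoli, 15 spermatocyte and 15 spermatid markers were well above background on both arrays, while Nanos2 of spermatogonia, Cd163 of macrophages and Lhcgr of Leydig cells were so on neither. Fewer cells of a type and less RNA per cell cannot be told apart in such mixed preparations, and the part of cell makeup in the values below was not tested.

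Ratios were computed on log2 signals after each array was divided by its 75th percentile signal, 905 for busulphan and 1046 for control. A gene was called higher or lower when the log2 ratio of busulphan over control was at least 1 in size, a 2-fold difference. Of the 77 genes, 76 were compared. The exception was Cdk5r2, a neuronal activator of Cdk5, whose probe was marked as an outlier on both arrays. In the busulphan library 17 of the 76 genes (22.4%) were at least 2-fold higher, beside 31.3% of all 9441 genes compared, and 28 (36.8%) were at least 2-fold lower, beside 29.5% of all genes. The median log2 ratio was -0.07 for the 76 genes and 0.07 for all genes. Without the Cdc42 group and the 3 genes matched only by name, 66 genes remained, 13 of them higher (19.7%) and 27 lower (40.9%), and their median was -0.40. In the tails, 9 of the 76 genes (11.8%) were at least 8-fold lower and 1 (1.32%) was at least 8-fold higher, beside 9.92% and 4.83% of all genes, and 4 (5.26%) were at least 16-fold lower, beside 5.45% of all genes.

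When the arrays were scaled to 6 spike-in control transcripts in place of the 75th percentile, the median of all genes moved to -0.81. The 76 genes then split into 8 higher (10.5%) and 37 lower (48.7%), beside 16.2% and 46.4% of all genes. That scaling lowers every log2 ratio by the same amount, so it could remove higher calls but no lower call. All 28 genes called lower therefore stayed lower, 8 of the 17 called higher stayed higher, and 9 of the 31 within 2-fold became lower. The unscaled log2 differences of the spike-in transcripts, busulphan over control, ran from 0.33 to 1.00, and their mean of 0.67 set the scaling. Spike-in values share that spread, and calls near the limit rest on the choice of the mean. Examples are Cdkn2b and Nek6 (log2 1.00 each), which kept the higher call. Others are Ccnd2, Cdk4, Plk2 and Cdk9 (0.82, 0.83, 0.87 and 0.93), which lost it. Cdk11b, Cdk7, Cdc16 and Ccnb3 (-1.14, -1.17, -1.22 and -1.34), which became lower, also lie near the limit. Ratios below are relative to the 75th percentile, and signs that turn with the scaling are given beside the gene. Counts for the small role groups below are to be read against all genes, of which 31.3% were higher and 29.5% lower.

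**Figure D1:**
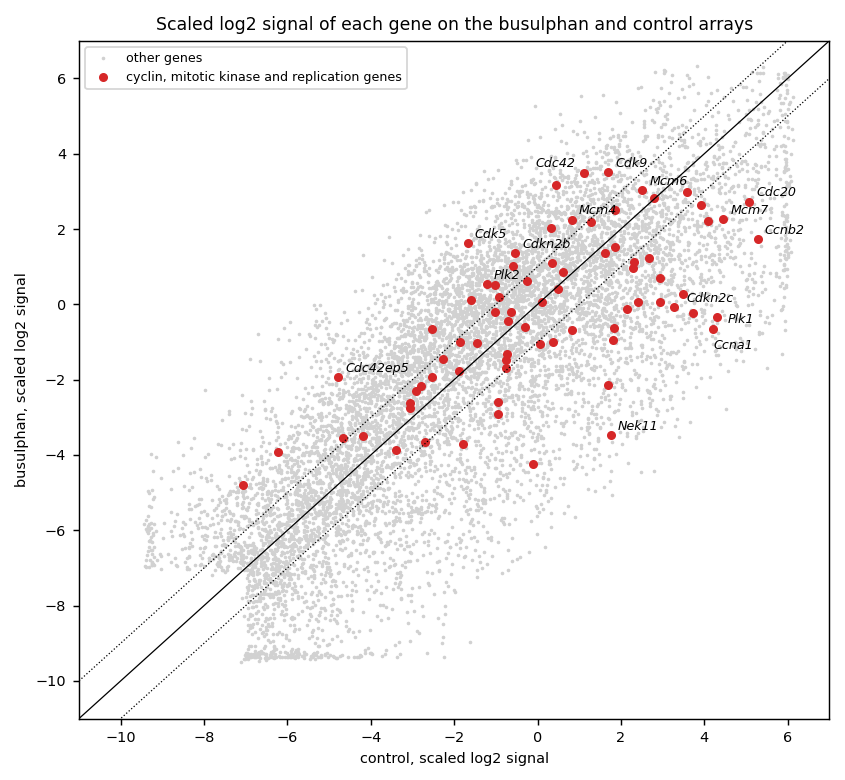
Scaled log2 signal of each of 9441 genes in the busulphan library (vertical axis) against the control library (horizontal axis), with the 76 cyclin, mitotic kinase and replication genes in red and dotted lines at 2-fold. The named genes below the lower dotted line, such as Ccna1, Plk1 and Nek11, fell in busulphan, and 4 of the 76 genes (5.26%, beside 5.45% of all genes) lie at least 16-fold below the diagonal.

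**Figure D2:**
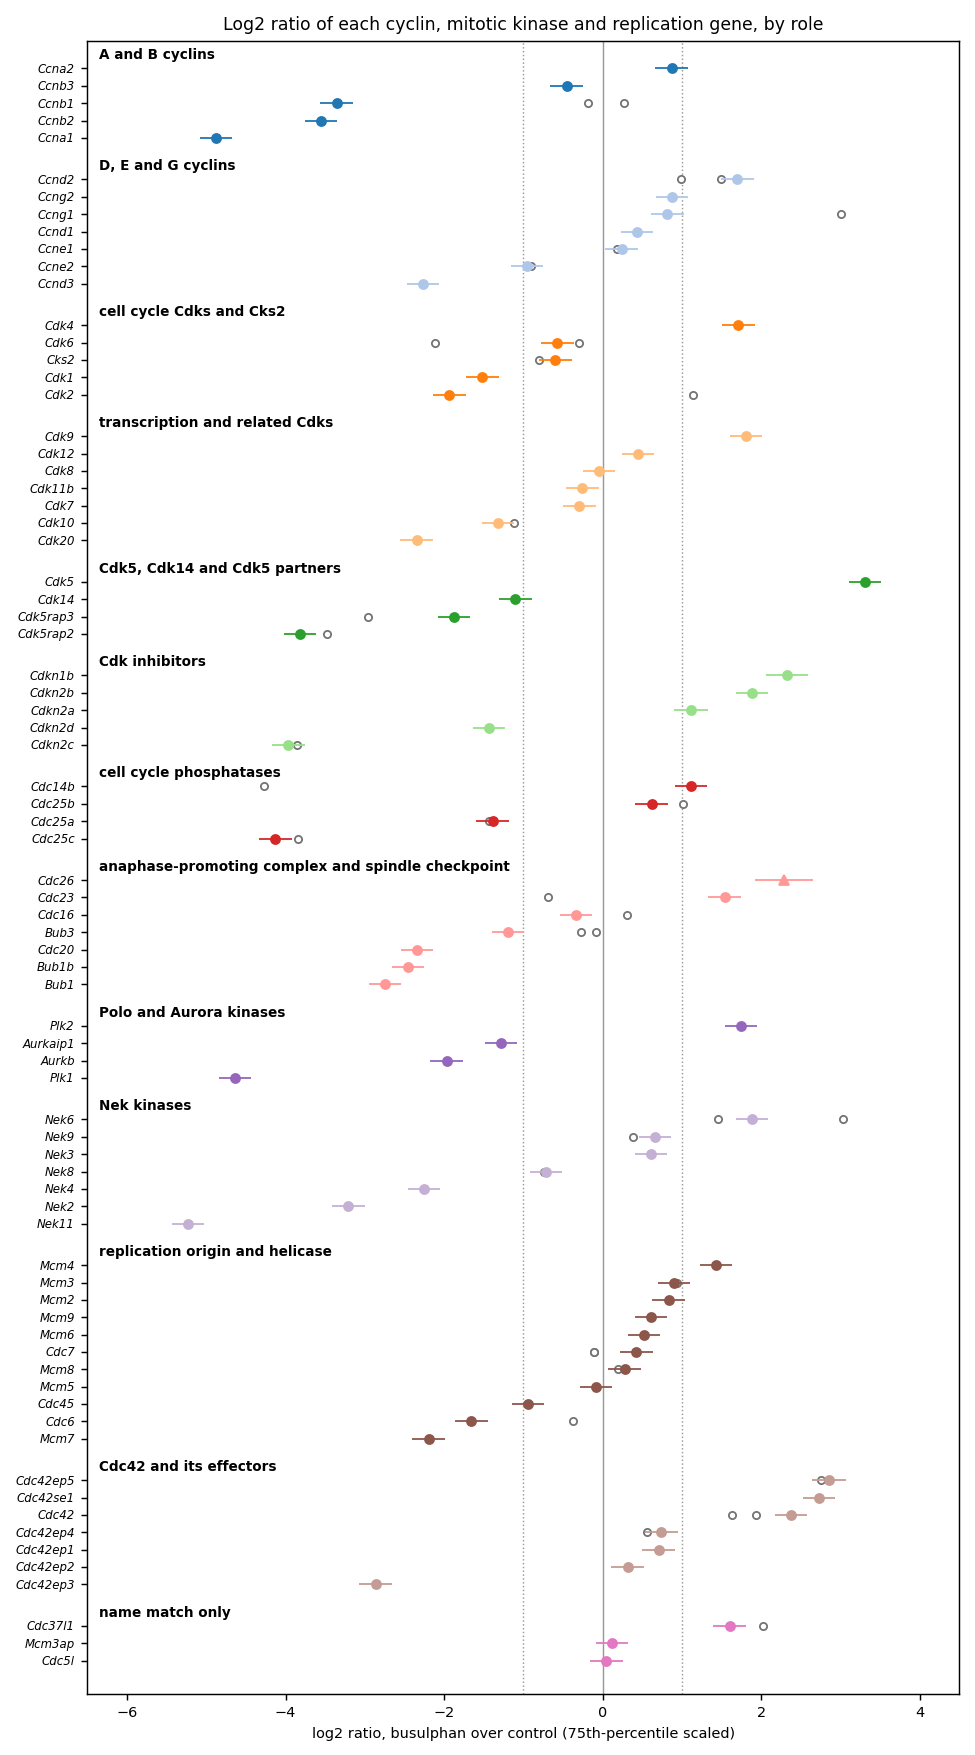
Log2 ratio of busulphan over control for the 76 genes, grouped by role. Filled circles are each gene's brightest probe and open circles its other probes, 3 of which (in Cdc37l1, Cdk2 and Cdk6) were dim on 1 array. The triangle (Cdc26) is a ratio against a control signal not well above background. Bars are 1 software error either way (0.20 to 0.37) and dotted lines mark 2-fold.

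Among the A and B cyclins, which drive entry into mitosis and meiosis, 3 of 5 genes fell in the busulphan library, by 10-fold or more, and none was at least 2-fold higher. Ccna1, the A cyclin of male germ cells that mouse spermatocytes need to enter the meiotic divisions, had a signal of 573 in the busulphan library and 19405 in the control library, 29.3-fold lower after scaling (log2 -4.87; probe at chr3:54851197-54852341 on mm9). Ccnb2 had a signal of 2988 in the busulphan library and 40609 in the control library, 11.8-fold lower (log2 -3.56; chr9:70255671-70255730). For Ccnb1, the main mitotic B cyclin, the brightest probe gave 855 in the busulphan library and 10130 in the control library, 10.2-fold lower (log2 -3.36; chr13:101549634-101549693). The other 2 Ccnb1 probes, whose starts lie within 660 bases of it, gave log2 ratios of -0.19 (signals of 219.6 in busulphan and 289 in control) and 0.27 (97.7 and 93.4), so the fall of Ccnb1 rests on 1 of its 3 probes.

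Ccna2, the A cyclin of somatic and mitotic cells, had 456 in the busulphan library and 288 in the control library, a log2 ratio of 0.87 that lay at -0.01 with spike-in scaling. Ccnb3, a B cyclin of meiosis in the mouse oocyte, had 62.4 in busulphan and 98.7 in control, a log2 ratio of -0.45. Within the A cyclins, the ratio of Ccna1 minus that of Ccna2 was -5.74 log2 units (software error 0.29), a gap that no scaling of whole arrays by a constant can alter.

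Promoters of cell cycle genes often carry CCAAT boxes, bound by NF-Y, and CHR elements (TTTGAA), through which repressor and activator complexes time expression to G2 and mitosis. Promoter windows of 250 bases before to 50 bases after the start, from RefSeq on GRCm38.p6, were available for 67 of the 77 genes (78 windows) and searched on both strands. The stretches shown are the last 120 bases before the start of 5 genes lower in the busulphan library and 2 higher, Plk2 and Cdk4, printed 5′ to 3′ on the gene's strand. Capitals mark the CCAAT box, the CHR element TTTGAA and the E2f-like motif TTTNNCGC, as read on either strand. Matches of different motifs overlapped in 1 of the 78 windows.
Ccnb1 (chr13:100786487-100786606, minus strand): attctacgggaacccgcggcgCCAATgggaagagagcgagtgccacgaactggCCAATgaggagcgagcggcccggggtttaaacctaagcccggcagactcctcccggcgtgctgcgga
Ccnb2 (chr9:70421555-70421674, minus strand): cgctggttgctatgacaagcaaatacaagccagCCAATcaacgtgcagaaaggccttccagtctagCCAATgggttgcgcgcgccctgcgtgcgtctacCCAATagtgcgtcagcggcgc
Cdk1 (chr10:69352913-69353032, minus strand): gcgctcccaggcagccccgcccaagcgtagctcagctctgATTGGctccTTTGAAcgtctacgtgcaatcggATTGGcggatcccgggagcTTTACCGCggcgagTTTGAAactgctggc
Cdc20 (chr4:118437344-118437463, minus strand): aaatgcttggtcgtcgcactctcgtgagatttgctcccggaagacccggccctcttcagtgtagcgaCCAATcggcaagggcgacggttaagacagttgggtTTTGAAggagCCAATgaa
Plk1 (chr7:122159315-122159434, plus strand): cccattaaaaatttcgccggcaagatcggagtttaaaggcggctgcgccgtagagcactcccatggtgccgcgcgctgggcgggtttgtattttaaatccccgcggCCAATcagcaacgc
Plk2 (chr13:110394924-110395043, plus strand): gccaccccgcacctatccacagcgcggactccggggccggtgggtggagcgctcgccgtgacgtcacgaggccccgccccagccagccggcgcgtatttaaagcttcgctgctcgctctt
Cdk4 (chr10:127063415-127063534, plus strand): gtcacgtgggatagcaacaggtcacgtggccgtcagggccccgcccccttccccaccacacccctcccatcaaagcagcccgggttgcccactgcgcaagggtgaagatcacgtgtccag

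Each of the 5 stretches of lower genes holds CCAAT, and those of Plk2 and Cdk4 hold none of the 3 motifs. The stretches are examples, and the windows did not split so cleanly. Among lower genes, the windows of Cdc6, Cdk14, Cdk20, Cdk5rap2, Nek4 and Cdc42ep3 held no CCAAT, while 5 of 13 higher genes with a window held it. CCAAT stood in 73.3% of the windows of lower genes (22 of 30 windows, 19 of 25 genes with a window), beside 29.4% of those of higher genes (5 of 17), 43.3% of those within 2-fold (13 of 30) and 37.4% of all 32851 mouse promoter windows. The promoter shares include the Cdc42 group and name matches and were not computed without them. Of those genes, the higher Cdc37l1, Cdc42, Cdc42ep5 and Cdc42se1 and the lower Cdc42ep3 had no CCAAT, which bears on the low window share of higher genes. Some genes have several windows. Counted by gene, CCAAT was found for 76% of lower genes, 38.5% of higher genes, 46.4% of those within 2-fold and 41.1% of all genes. The share of higher genes was thus near that of all genes. TTTGAA stood in 26.7% of windows of lower genes (8 of 30), beside 17.6% of windows of higher genes (3 of 17), 23.3% of those within 2-fold (7 of 30) and 17.9% of all windows, so that its share in lower genes was near that of genes within 2-fold. Both motifs together in 1 window were found for 6 lower genes, Bub1b, Bub3, Ccnb2, Cdc20, Cdk1 and Plk1 (23.3% of windows), and for none of the higher genes, beside 10% of the windows of genes within 2-fold and 6.95% of all windows. The E2f-like motif, whose form is that of S phase genes, stood in 23.3% of windows of lower genes, 11.8% of those of higher genes, 16.7% of those within 2-fold and 5.17% of all. A match is a description of letters in these windows, and binding was not measured.

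The D, E and G cyclins showed no common direction: 1 of 7 rose and 1 fell, and the median log2 ratio was 0.43 (-0.45 with spike-in scaling). Ccnd2, a D cyclin found in spermatogonia and in Sertoli cells, had 3691 in the busulphan library and 1313 in the control library, 3.25-fold higher (log2 1.70, and 0.82 with spike-in scaling; chr6:127089187-127089246), and its other probes gave 1.49 and 0.98. Ccnd3 had 827 in the busulphan library and 4605 in the control library, 4.82-fold lower (log2 -2.27; chr17:47736267-47736326). The D cyclins thus moved in opposite directions, with a difference of -3.97 between Ccnd3 and Ccnd2 (software error 0.29). Ccnd1 had 147 in busulphan and 126 in control, a log2 ratio of 0.43 that was -0.45 with spike-in scaling. Ccne1, a partner of Cdk2 at the entry into S phase, had 1644 in busulphan and 1609 in control (log2 0.24, and -0.64 with spike-in scaling), while Ccne2 had 71.5 in busulphan and 160 in control (log2 -0.95, and -1.84 to -1.08 under the other scalings, which passes 2-fold). Ccng1 and Ccng2, cyclins linked to stress and cell cycle arrest, had log2 ratios of 0.82 and 0.88, which lay at -0.07 and -0.01 with spike-in scaling. A second Ccng1 probe stood at 614 in busulphan and 88.2 in control, a log2 ratio of 3.01.

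Of the cell cycle kinases and the subunit Cks2, 1 of 5 genes was higher and 2 were lower. Cdk4, the partner of D cyclins, had 972 in the busulphan library and 343 in the control library, 3.28-fold higher (log2 1.71, and 0.83 with spike-in scaling; chr10:126501967-126502026). Cdk1, the kinase of mitotic entry, had 562 in the busulphan library and 1859 in the control library, 2.86-fold lower (log2 -1.52; chr10:68805423-68807832). Cdk2, which mice need for meiosis, had 68.8 in the busulphan library and 304 in the control library, 3.82-fold lower (log2 -1.93; chr10:128140817-128140876). A second Cdk2 probe was not well above background in control and was at least 2.20-fold higher in busulphan (signals of 14.3 and 6.48), so the direction of Cdk2 differed between probes. The ratio of Cdk1 minus that of Cdk4 was -3.23 log2 units (software error 0.29). Cdk6 had 365 in busulphan and 626 in control, a log2 ratio of -0.57, with another probe at -2.12. Cks2, which binds Cdks and helps them choose substrates, had 7185 in busulphan and 12549 in control, a log2 ratio of -0.60 that lay at 0.09 with quantile normalisation.

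All 5 Cdk inhibitors of the set, which leaves out Cdkn1a and Cdkn1c, passed 2-fold in the busulphan library. Of them 3 were higher and 2 lower, where 31.3% of all genes were higher and 29.5% lower. Cdkn2b, an inhibitor of Cdk4 and Cdk6 of the Ink4 family, had 2314 in the busulphan library and 724 in the control library, 3.69-fold higher (log2 1.88; chr4:88952437-88952496), and stayed just past 2-fold with spike-in scaling (log2 1.00). Its neighbour Cdkn2a had 77.4 in the busulphan library and 41.4 in the control library, 2.16-fold higher (log2 1.11). That ratio was 0.23 with spike-in scaling and 0.63 with normexp background correction. Cdkn1b, a Kip inhibitor that restrains Sertoli cell proliferation in the mouse, had 60.2 in the busulphan library and 13.9 in the control library, 5.02-fold higher (log2 2.33), and both signals were dim: with normexp background correction its log2 ratio was 0.88.

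The other Ink4 inhibitors went the opposite way. Cdkn2c had 771 in the busulphan library and 13914 in the control library, 15.6-fold lower (log2 -3.97; chr4:109333779-109333838), and its second probe gave -3.86. Cdkn2d, which together with Cdkn2c is needed for normal mouse spermatogenesis, had 2137 in the busulphan library and 6670 in the control library, 2.70-fold lower (log2 -1.43). The ratio of Cdkn2c minus that of Cdkn2b was -5.85 log2 units, and that of Cdkn2d minus Cdkn2b was -3.32, each with a software error of 0.29.

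**Figure D3:**
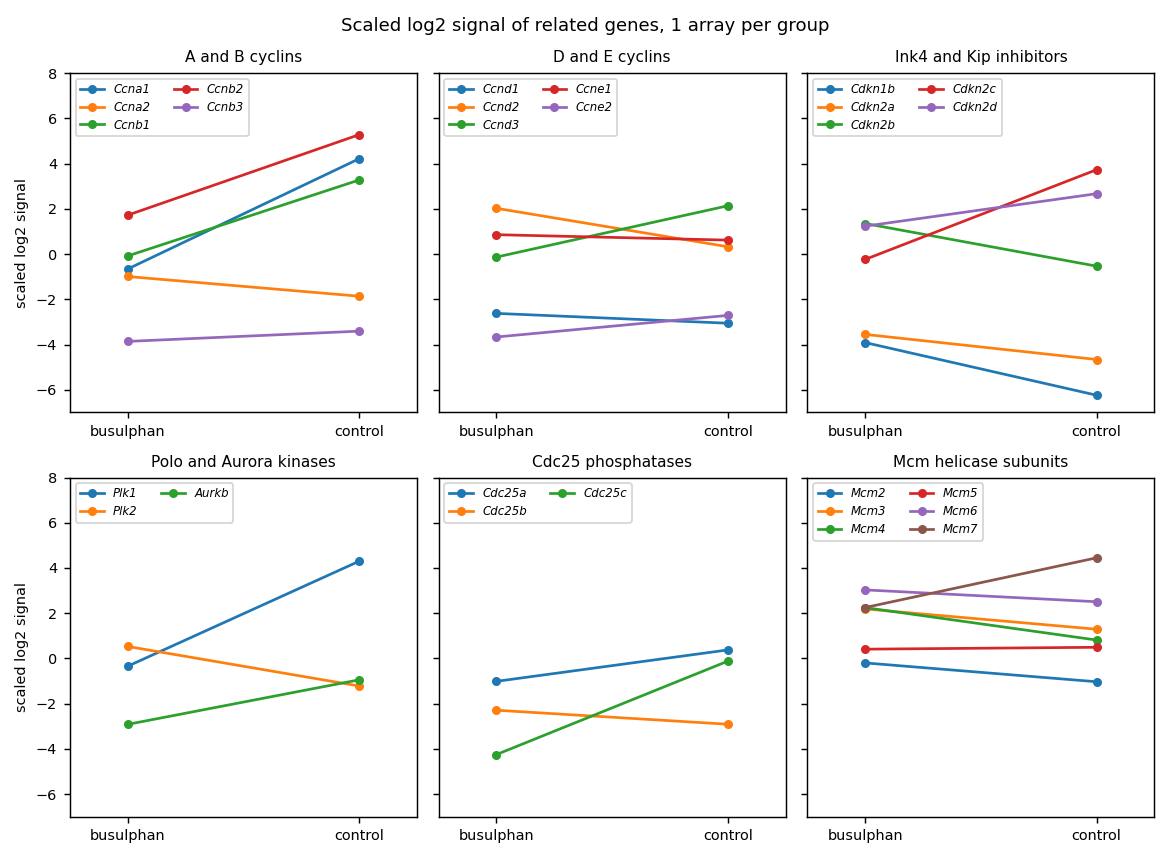
Scaled log2 signal (vertical axis) of related genes in the busulphan and control libraries, 1 array each, joined per gene. Each gene is read by its own probe, so slopes can be compared and heights cannot. Within the A cyclins, D cyclins, Ink4 inhibitors, Polo kinases and Mcm subunits, lines slope both ways, as for Ccna1 (log2 -4.87) and Ccna2 (0.87, and -0.01 with spike-in scaling).

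Among the phosphatases, Cdc25 enzymes activate Cdks by removing inhibitory phosphates, and 2 of the 3 fell. Cdc25c, which acts at entry into division, had 47.6 in the busulphan library and 962 in the control library, 17.5-fold lower (log2 -4.13), and its second probe gave -3.85. Cdc25a had 449 in the busulphan library and 1357 in the control library, 2.62-fold lower (log2 -1.39; chr9:109795020-109795082), with -1.43 from its second probe. Cdc25b had 185 in busulphan and 139 in control, a log2 ratio of 0.62 that was -0.26 with spike-in scaling. Cdc14b, a phosphatase that opposes Cdk substrates, gave contrary readings: its brighter probe was 2.16-fold higher in the busulphan library (1032 in busulphan and 551 in control, log2 1.11) and a probe 20104 bases away gave 71.2 in busulphan and 1590 in control, a log2 ratio of -4.27.

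The 3 Bub genes of the spindle checkpoint were lower on their brightest probes, as was Cdc20, an activator of the anaphase-promoting complex, the ubiquitin ligase that starts chromosome separation. Outside the name prefixes, the subunit genes of the complex were mixed. Anapc10 and Anapc11 stood at -1.89 and -1.69 and Anapc2 at -0.49, while Anapc1, Anapc7 and Anapc5 stood at 0.89, 0.96 and 1.31. The checkpoint genes Mad2l1 and Mad1l1 stood at -0.04 and -0.24. These genes were chosen after their values were seen. Of the 7 genes of both complexes taken by prefix, 4 were lower and 2 higher, with a median log2 ratio of -1.19. Cdc20, which activates the complex, had 5963 in the busulphan library and 35025 in the control library, 5.08-fold lower (log2 -2.35; chr4:118105536-118105595). Bub1, a checkpoint kinase of the kinetochore, had 470 in the busulphan library and 3640 in the control library, 6.70-fold lower (log2 -2.74; chr2:127626988-127627047). Bub1b, its relative that inhibits Cdc20, had 588 in the busulphan library and 3736 in the control library, 5.50-fold lower (log2 -2.46; chr2:118466830-118466889). Bub3, the partner of both, had 1980 in the busulphan library and 5223 in the control library, 2.28-fold lower (log2 -1.19), but its other 2 compared probes gave -0.08 and -0.27. Of the subunits taken by prefix, Cdc23 had 1285 in the busulphan library and 511 in the control library, 2.90-fold higher (log2 1.54, and 0.66 with spike-in scaling), with -0.69 from a dimmer probe. Cdc26 was dim, at 32.7 in busulphan and 7.75 in control, where it was not well above background. Against that control signal it was 4.87-fold higher in busulphan (log2 2.29), but its log2 ratio was 0.65 with normexp background correction. Cdc16 had 2615 in busulphan and 3815 in control, a log2 ratio of -0.34 that lay at 0.03 with quantile normalisation.

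Polo and Aurora kinases control centrosomes, kinetochores and cell cleavage. Of the 4 genes in this group, which includes the binding protein Aurkaip1, 3 fell and 1 rose, beside 29.5% and 31.3% of all genes. With quantile normalisation 2 were lower. Plk1, the Polo kinase of mitosis and meiosis, had 712 in the busulphan library and 20522 in the control library, 24.9-fold lower (log2 -4.64; chr7:129313220-129313279). Plk2, a Polo kinase of early G1 and stress responses, had 1308 in the busulphan library and 450.1 in the control library, 3.36-fold higher (log2 1.75, and 0.87 with spike-in scaling; chr13:111190915-111190974). Their ratios differed by -6.39 log2 units (Plk1 minus Plk2, software error 0.29). Aurkb, the Aurora kinase of the chromosomal passenger complex, had 120 in the busulphan library and 543 in the control library, 3.91-fold lower (log2 -1.97; chr11:68865037-68865096). Aurkaip1, which binds Aurora A and is also a mitochondrial ribosome protein, had 5634 in the busulphan library and 15863 in the control library, 2.44-fold lower (log2 -1.28, and -0.61 with quantile normalisation).

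Nek kinases act at centrosomes, spindles and cilia, and 3 of 7 were lower and 1 higher. Nek11, a kinase linked to the DNA damage checkpoint, had 80.9 in the busulphan library and 3517 in the control library, 37.6-fold lower (log2 -5.23; chr9:105064935-105064994), the lowest ratio of the 76 genes. Nek2, which splits centrosomes at the onset of division, had 1098 in the busulphan library and 11719 in the control library, 9.24-fold lower (log2 -3.21; chr1:193656343-193656402). Nek4 had 1458 in busulphan and 8032 in control, 4.77-fold lower (log2 -2.25). Nek6, a spindle kinase downstream of Nek9, had 575 in the busulphan library and 179.9 in the control library, 3.69-fold higher (log2 1.89), and its other probes gave 1.46 and 3.03. Nek9, Nek3 and Nek8 had log2 ratios of 0.66, 0.61 and -0.71. Those of Nek9 and Nek3 were -0.23 and -0.27 with spike-in scaling.

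Replication genes mostly lay within 2-fold with the percentile scaling. Of 11 genes that license origins or form the helicase, 1 rose, 2 fell and 8 passed neither limit, and the median log2 ratio was 0.43 (-0.46 with spike-in scaling). Quantile normalisation gave 3 higher and 3 lower. The subunits Mcm2 to Mcm7 form a single ring, yet their transcripts did not shift alike. Mcm4 had 4298 in the busulphan library and 1840 in the control library, 2.70-fold higher (log2 1.43, and 0.55 with spike-in scaling; chr16:15624372-15624431). Mcm7 had 4314 in the busulphan library and 22858 in the control library, 4.58-fold lower (log2 -2.20; chr5:138605925-138605984). The ratio of Mcm7 minus that of Mcm4 was -3.63 log2 units, with a software error of 0.29.

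The other 4 ring subunits lay between. Mcm3 had 4127 in busulphan and 2562 in control, a log2 ratio of 0.90 that was 0.01 with spike-in scaling. Mcm2 had 789 in busulphan and 512 in control (log2 0.83, and -0.05 with spike-in scaling), and Mcm6 had 7398 in busulphan and 5950 in control (log2 0.52, and -0.36). Mcm5 had 1203 in busulphan and 1473 in control, a log2 ratio of -0.08 that lay at 0.03 with quantile normalisation. These 4 subunits were within 2-fold with both the percentile and the spike-in scaling, whereas Mcm3 and Mcm6 passed it with quantile normalisation (log2 1.29 and 1.11). Cdc6, which loads the ring onto origins, had 149.5 in the busulphan library and 545 in the control library, 3.15-fold lower (log2 -1.66; chr11:98782573-98782632), while a dim second probe gave -0.38. Cdc45, which joins the ring to make the active helicase, had 281 in busulphan and 623 in control, a log2 ratio of -0.94 that passed 2-fold under the other scalings (-1.82 to -1.08). Cdc7, the kinase that fires origins, had 786 in busulphan and 676 in control (log2 0.43, and -0.46 with spike-in scaling). Mcm8 and Mcm9, which act together in recombination repair, had log2 ratios of 0.28 and 0.61, both below 0 with spike-in scaling (-0.61 and -0.27).

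A further 7 Cdk kinases, most of which act on transcription, were mixed, with 1 higher and 2 lower. Cdk9, which releases paused RNA polymerase II, had 10281 in the busulphan library and 3389 in the control library, 3.51-fold higher (log2 1.81, and 0.93 with spike-in scaling; chr2:32563015-32563074). Cdk20, a kinase linked to cilia, had 952 in the busulphan library and 5594 in the control library, 5.08-fold lower (log2 -2.35; chr13:64540714-64540773). Cdk10 had 1757 in the busulphan library and 5083 in the control library, 2.50-fold lower (log2 -1.32, and -0.97 with quantile normalisation). Cdk7 of the general factor TFIIH, Cdk8 of the Mediator complex, Cdk11b and Cdk12 had log2 ratios between -0.29 and 0.45; Cdk12 (0.45) was at -0.43 with spike-in scaling and Cdk11b (-0.26) at 0.09 with quantile normalisation.

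Cdk5, a kinase best known from neurons whose main activators are not cyclins, had the highest ratio of the 76 genes. Its signal was 2803 in the busulphan library and 327 in the control library, 9.91-fold higher (log2 3.31, and 2.43 with spike-in scaling; chr5:23925603-23926077). The genes named for binding to Cdk5 activators went the other way. Cdk5rap2, a centrosome protein that anchors microtubule nucleation, had 205 in the busulphan library and 3352 in the control library, 14.1-fold lower (log2 -3.82; chr4:69889702-69896383), and a probe 126168 bases away gave -3.47. Cdk5rap3 had 4179 in the busulphan library and 17689 in the control library, 3.66-fold lower (log2 -1.87), with -2.96 from its second probe. Cdk14, a kinase of Wnt signalling, had 439 in the busulphan library and 1087 in the control library, 2.15-fold lower (log2 -1.10).

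Cdc42, which sets cell polarity and shapes actin, rose with 2 of its effectors. The signal of Cdc42 was 10208 in the busulphan library and 2271 in the control library, 5.19-fold higher (log2 2.38; chr4:136875813-136875872), and its other 2 probes gave 1.93 and 1.64. Cdc42se1, a small effector, had 8117 in the busulphan library and 1416 in the control library, 6.63-fold higher (log2 2.73). Cdc42ep5, an effector of the Borg family, had 236 in the busulphan library and 37.7 in the control library, 7.24-fold higher (log2 2.86). These 3 genes kept their calls with spike-in scaling (log2 1.49, 1.85 and 1.97). Cdc42ep3, another Borg protein, moved against them, with 948 in the busulphan library and 7984 in the control library, 7.28-fold lower (log2 -2.86; chr17:79733409-79733468). Cdc42ep1, Cdc42ep2 and Cdc42ep4 had log2 ratios of 0.70, 0.31 and 0.74, all below 0 with spike-in scaling. Of the genes matched only by name, Cdc37l1, a co-chaperone of Hsp90, was 3.04-fold higher (1818 in busulphan and 692 in control, log2 1.60, and 0.72 with spike-in scaling). The splicing factor Cdc5l and the RNA export factor Mcm3ap had log2 ratios of 0.05 and 0.12, which were -0.83 and -0.77 with spike-in scaling.

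Cell cycle genes outside the prefixes were read from 4 further lists, of which 88 of 117 genes were compared. Together 9 were higher (10.2%) and 44 lower (50%) in the busulphan library, with a median log2 ratio of -0.99, beside 31.3% and 29.5% of all genes. The list of spindle, kinetochore and cytokinesis genes had 20 of 32 genes lower and 3 higher (median -1.86). Its lowest ratios were those of Kif2c, a microtubule-depolymerising kinesin (log2 -5.74), and Haspin, a histone H3 kinase of germ cells and mitosis (-4.76), and its highest those of Anapc5 (1.31) and Racgap1 (1.10).

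Genes of S phase and nucleotide supply had 13 of 34 lower and 5 higher (median -0.34), with Rpa1 at -2.94 and Rfc2 at -2.93 and, at the upper end, the thymidine kinase Tk1 at 2.18 and the origin subunit Orc6 at 1.49. The list of Rb and E2f genes had 6 of 13 lower and 1 higher (median -0.55). Its highest ratios were those of Rb1, the retinoblastoma protein that restrains S phase entry (2.23), and Tfdp1 (0.77). Its lowest were those of the Rb1 relative Rbl2 (-5.49) and Foxm1, a transcription factor of mitotic genes (-4.90). Of 9 checkpoint genes, kinases together with Rad9a, Rad17 and Hus1, 5 were lower and none was higher (median -1.15). The lowest ratios were those of the Cdk1-inhibiting kinases Pkmyt1 (-2.99) and Wee1 (-2.41), and the highest those of Atm (0.85) and Chek2 (0.69).

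**Figure D4:**
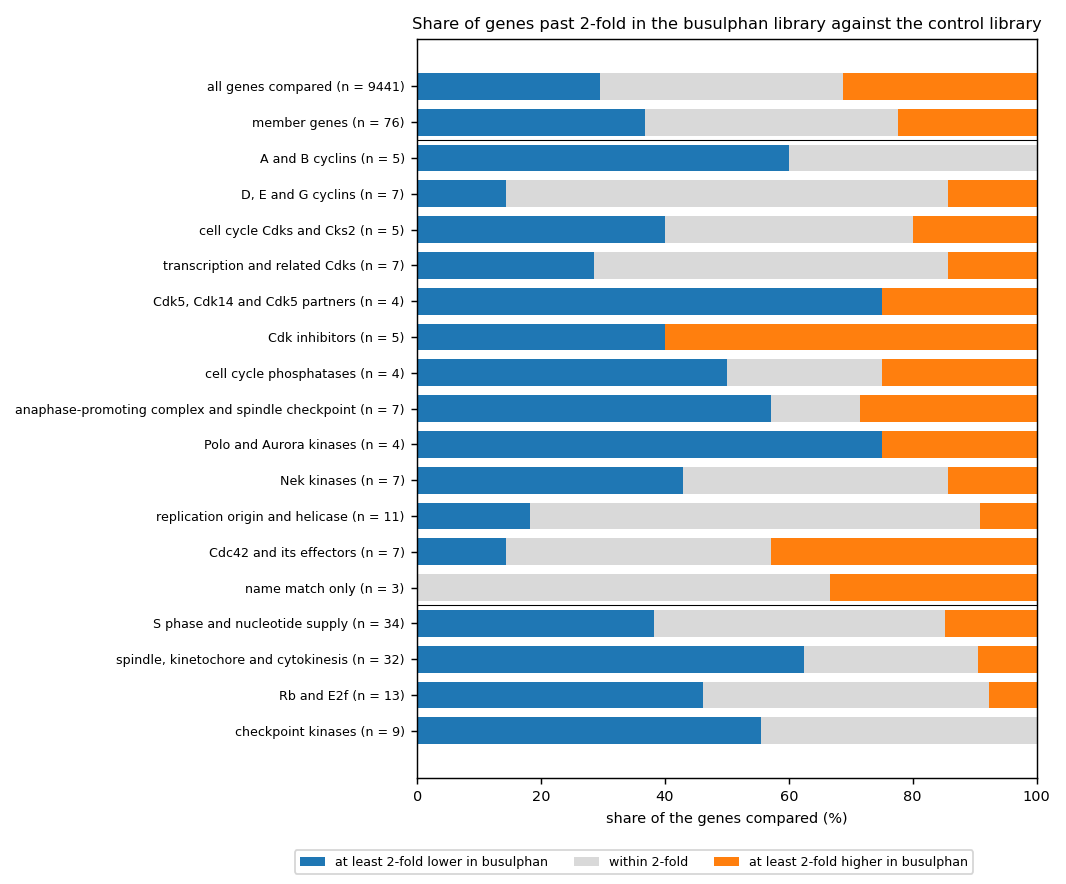
Share of genes (horizontal axis, percent of genes compared) at least 2-fold lower (blue), within 2-fold (grey) and at least 2-fold higher (orange) in the busulphan library against the control library, for all 9441 genes, the 76 genes, their 13 role groups and 4 further cell cycle lists. Lower genes make up 3 of 5 A and B cyclins (2 with the median over probes) and 20 of 32 spindle genes. They make up 3 of 4 genes in both the Polo and Aurora group and the Cdk5 group. Of 11 replication origin and helicase genes 2 were lower (3 with spike-in scaling), beside 29.5% of all genes.

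Agreement between probes bears on single genes. Of the 30 genes with several compared probes, 20 had the same call from every probe, and the range between probes of a gene had a median of 0.40 log2 units, beside 0.81 for all 2644 such genes. A range of 1 log2 unit or more was seen for 10 of the 30 genes (33.3%), beside 44.6% of all such genes, and Cdc14b and Cdk2 were called in both directions. The software error of a ratio, 0.20 to 0.37 for these genes, covers the spot and not the preparation.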

How the data were processed

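Gene expression was measured in 1 busulphan and 1 control preparation. Per the file headers, Agilent Feature Extraction 11.5.1.1 produced the deposited intensity values, background-subtracted and corrected for a trend across the slide. Probe coordinates are on mm9. A log2 table of the series was also deposited; it equals log2 of the processed signal minus 9.82 (busulphan) and 10.03 (control), and was used as an alternative. The busulphan array had 12064 probes (79.3%) and the control array 12302 (80.9%) well above background, and their headers give an identical scan time. Preparation, labelling and array cannot be told apart from the group. The number of arrays limits the precision.

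Each array's 75th percentile was subtracted from the log2 of its processed signals. The 4 outlier-flagged probes and probes not well above background on either array were left out (6 probes of the 76 genes). A gene took its brightest probe. Where 1 array was dim, the ratio was taken against that array's lowest signal well above background or the probe's own, whichever is higher, and treated as a bound. For Cdc26 the probe's own control signal was higher, so its ratio is the measured one. No probe that gave one of the 76 ratios was saturated. Names came through accessions from a GRCm38.p6 table for 13300 probes, and 1908 kept the file's name. No test was possible on single arrays, and calls are by size. Python 3.11.15 (numpy 2.4.6, pandas 2.3.3, matplotlib 3.10.9) and R 4.3.3 with limma 3.58.1 (normexp, offset 50) were used, and the calling was tested on simulated data. The position of probes within transcripts was not used here.

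The members, gene lists and alternatives were chosen with earlier results of these data known. Any of the 77 genes could be named. Both signals were to be given for A, B, D and E cyclins, Cdk1, Cdk2, Cdk4, Cdk6, Cks, Cdkn, Cdc25, Plk, Aurora and Bub genes, Cdc20, Mcm2 to Mcm7, Cdc6, Cdc7 and Cdc45, and for the 2 highest and 2 lowest ratios of each other role group. Of other lists the 2 highest and 2 lowest ratios could be named. Alternatives were other scalings (median, quantile, 6 spike-in probes with 20 spots each, none), normexp, the deposited log2 table, the median over probes, measured values for bounds, other filters on dim probes, thresholds of 1.5-fold and 4-fold, and the set without the Cdc42 group and name matches.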

Additional observations from a re-analysis of the deposited data

How the results depend on the processing

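The counts of higher and lower genes and the median over the 76 genes were recomputed under 13 alternatives (the median not under the other fold thresholds), and single ratios of these genes under 10; the further gene lists, marker lists and promoter shares were not recomputed. The count of higher genes (17) was 8 with spike-in scaling, 28 at 1.5-fold and 6 at 4-fold, and the count of lower genes (28) was 17 at 4-fold; under the other alternatives the counts stayed within 1.5 times, between 13 and 20 higher and between 26 and 37 lower. The median log2 ratio (-0.07) was -0.95 with spike-in scaling, -0.28 with no scaling and -0.40 without the Cdc42 group and name matches, and its distance to the median of all genes ran from -0.22 to -0.03 except in that last case (-0.46). Of 759 recomputed gene ratios 653 stayed within the 95% interval of the software error, 105 moved further and 1 reversed: Cdc14b was -1.58 with the median over probes, whose construction brings in its second probe. Of the 17 higher genes, Cdc42, Cdc42ep5, Cdc42se1, Cdk5, Cdkn2b and Nek6 kept the call in all 10 alternatives that bear on single genes, Cdkn2b and Nek6 only just with spike-in scaling (log2 1.00 each). Of the 28 lower genes 23 did, the exceptions being Aurkaip1, Bub3, Ccnb1, Cdk10 and Cdk2. The median, spike-in and no-scaling alternatives lower every ratio by a constant. They could thus remove higher calls but no lower call, so the shares kept among higher and lower genes are not alike. Dim signals limit Cdc26, Cdkn2a and Cdkn1b, whose log2 ratios were 0.65, 0.63 and 0.88 with normexp. No paired analysis was possible because each group holds 1 array, and for the same reason no replicate could be left out.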
